A study of Mus musculus with 18 samples.

Results

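The 38 genes described here are interferon-stimulated antiviral genes, given as a set by their symbols. All 38 are among the 26143 genes of the table, and all 38 passed the filter on low values. The study sequenced poly(A) RNA of mouse squamous epithelium in 18 libraries of 4 genotypes. The double mutant, E20/p53, carries LSL-PIK3CA with the H1047R change, a heterozygous LSL-p53 R172H allele and K14-Cre, and is labelled tongue (n = 6). E20 is labelled as LSL-PIK3CA H1047R tongue (n = 6) and p53 as heterozygous LSL-p53 R172H tongue (n = 3), and for these groups the labels name no Cre. WT is wild type and is labelled esophagus (n = 3), so tissue and genotype cannot be told apart in any comparison with WT. LSL is a transcription stop flanked by loxP sites that Cre removes. K14-Cre expresses the recombinase from the keratin 14 promoter, which is active in basal keratinocytes. PIK3CA is the catalytic subunit of a phosphoinositide 3-kinase, and p53 R172H is a mutant form of the p53 tumour suppressor. The series title also names the chemical carcinogen 4NQO, but the labels do not say which animals received it, nor give the animals' age or sex. They do not say that libraries came from separate animals either, so the spread between neighbouring libraries of a group may be technical. The p-values measure the spread around each group mean, pooled over the groups.

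Type I and type III interferons are secreted proteins that cells release after sensing foreign RNA or DNA. Their receptors signal through JAK kinases to the transcription factor complex ISGF3, which holds STAT2 and IRF9. ISGF3 binds the interferon-stimulated response element (ISRE) in the promoters of the induced genes, whose products sense viral RNA, block its translation or replication, or modify other proteins. In epithelia these genes are part of the barrier against viruses, and many of them are also expressed at a low level without infection.

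Levels are given in CPM, reads scaled to a common library total and recovered from the deposited log2 values, over libraries of 14592044 to 18176060 reads. The libraries fell into 6 blocks of 3 by replicate number: E20/p53 1 to 3, E20/p53 4 to 6, E20 1 to 3, E20 4 to 6, p53 and WT. Over all genes tested, libraries inside a block correlated at 0.991 to 0.994, against 0.859 to 0.944 between the blocks of a group. The blocks are not groups of the study, and no test was made between them. The test had no term for them, so its spread holds the difference between the blocks of E20 and of E20/p53. This spread is shared by all comparisons, including that of p53 with WT. The summed level of 10 keratinocyte markers was 1431 to 1455 CPM in E20/p53 1 to 3 and at most 143 CPM in the other tongue blocks. Markers of squamous epithelium were thus low in most tongue libraries, against their label. In WT the sum was 358 to 394 CPM, most of it from Itga6 (306 to 344 CPM). The sum of 5 simple epithelium markers was 271 to 288 CPM in WT and at most 12.3 CPM in the tongue blocks. By these markers WT is therefore not a clear squamous reference either. The sum of 9 fibroblast markers was 336 to 362 CPM in the first E20/p53 block, 21514 to 23437 CPM in the second and 17401 to 19470 CPM in E20. It was 8757 to 9505 CPM in p53 and 1453 to 1575 CPM in WT. Most of the high sums came from the collagens Col1a1, Col1a2 and Col3a1. Pdgfra differed less, with 47.6 to 52.5 CPM in the first E20/p53 block and 60.1 to 69.9 CPM in the second. Postn had 149 to 174 and 1643 to 1708 CPM there, but 52.5 to 63.4 CPM in E20 4 to 6. Thy1 had 116 to 137 CPM in p53 and at most 0.745 CPM in any other library. The X-linked Xist averaged 0.475 and 0.826 CPM in the E20/p53 blocks, 893 and 1303 CPM in the E20 blocks and 0.172 CPM in p53. The Y-linked Eif2s3y was at 0 in E20 and averaged 67.6 to 103 CPM in E20/p53 and 95.3 CPM in p53. Sex by these markers and genotype therefore cannot be told apart in either tongue comparison that involves E20. In WT Xist averaged 0.677 CPM and Eif2s3y was at 0, so these markers do not assign a sex to WT.

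The promoters are shown first because the ISRE is the element through which the module is known to be induced. A RefSeq window of 250 bases before to 50 after a start site (build GRCm38.p6) was found for 28 of the 38 members. The ISRE core, GAAA followed by any 2 bases and GAAA again, or its reverse complement, was in a window of 12 of these 28, or 42.9%, against 3.99% of 27025 genes with such windows. The 12 are Ddx58, Ifih1, Ddx60, Eif2ak2, Ifit1, Ifit3, Rsad2, Bst2, Isg15, Trim21, Trim30a and Ifi203. The core TTCNNNGAA of the gamma-activated site (GAS), known from genes induced by interferon gamma, was in a window of 4 of the 28, or 14.3%, against 9.55% of the genes. A match is a run of letters and not a shown binding site. 4 windows with the core and 1 without it follow, 5′ to 3′ on the gene's strand, with the ISRE core in capitals. In Isg15 3 overlapping cores begin 78, 72 and 66 bases before the start site, in Ifit1 cores begin 104 and 85 bases before it, in Ifit3 156 and 122 and in Bst2 130 and 124. Trim25, the member with the smallest fall that passed the test in the double mutant against E20, has none in its window. The windows shown do not stand for all members. Eif2ak2, with a core, had a log2 difference of -1.02 in that comparison. Phf11d, Ifi44 and Sp100, whose windows lack the core, had -5.83, -5.61 and -5.52. The median was -4.45 over the 12 members with a core and -2.28 over the 16 whose window lacks it. This split was not tested.
Isg15, chr4:156200769-156201068, minus strand: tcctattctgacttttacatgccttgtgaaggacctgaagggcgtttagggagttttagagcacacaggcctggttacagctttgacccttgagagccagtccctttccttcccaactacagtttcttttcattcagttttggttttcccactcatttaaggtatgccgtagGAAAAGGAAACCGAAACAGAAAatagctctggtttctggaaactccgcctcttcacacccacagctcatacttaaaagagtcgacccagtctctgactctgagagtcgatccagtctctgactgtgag
Ifit1, chr19:34640639-34640938, plus strand: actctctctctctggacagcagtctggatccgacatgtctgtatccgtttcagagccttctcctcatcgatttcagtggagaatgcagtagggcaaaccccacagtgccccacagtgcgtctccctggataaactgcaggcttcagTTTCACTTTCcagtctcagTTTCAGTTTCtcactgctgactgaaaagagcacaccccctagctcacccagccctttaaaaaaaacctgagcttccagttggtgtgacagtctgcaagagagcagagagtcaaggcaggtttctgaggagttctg
Ifit3, chr19:34583279-34583578, plus strand: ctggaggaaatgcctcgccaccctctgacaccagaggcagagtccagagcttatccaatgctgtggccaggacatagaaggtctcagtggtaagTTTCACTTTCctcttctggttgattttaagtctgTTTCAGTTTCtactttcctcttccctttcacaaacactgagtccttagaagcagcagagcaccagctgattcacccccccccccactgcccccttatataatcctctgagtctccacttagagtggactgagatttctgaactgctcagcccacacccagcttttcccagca
Bst2, chr8:71537423-71537722, minus strand: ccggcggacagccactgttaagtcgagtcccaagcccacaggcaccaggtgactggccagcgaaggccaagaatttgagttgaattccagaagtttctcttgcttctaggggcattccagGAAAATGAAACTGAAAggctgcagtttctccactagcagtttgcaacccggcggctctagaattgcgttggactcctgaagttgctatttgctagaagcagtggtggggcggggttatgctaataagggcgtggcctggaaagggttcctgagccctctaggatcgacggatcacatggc
Trim25, chr11:88999153-88999452, plus strand: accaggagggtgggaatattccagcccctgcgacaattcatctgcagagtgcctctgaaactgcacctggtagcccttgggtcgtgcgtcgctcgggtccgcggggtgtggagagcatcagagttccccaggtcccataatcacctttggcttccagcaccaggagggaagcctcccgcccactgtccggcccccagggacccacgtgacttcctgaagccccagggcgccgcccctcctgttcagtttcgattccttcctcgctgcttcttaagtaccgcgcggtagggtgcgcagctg

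The members lie on 14 chromosomes, by GENCODE M21 on mm10, and some are neighbours. Ifit2, Ifit3 and Ifit1 follow each other on chromosome 19 with gaps of 7111 and 52139 bases. Rsad2 and Cmpk2 are divergent on chromosome 12, 12751 bases apart, and Ifi27 and Ifi27l2a end 1927 bases from each other on the same chromosome. Parp14, Dtx3l and Parp9 lie together on chromosome 16, where Dtx3l and Parp9 share 458 exonic bases on opposite strands. Whether the counting used strand is not given in the sources used here, so reads over those bases cannot be assigned to either gene. Members with near copies in the genome (Ifit3 with Ifit3b, Trim30a with Trim30d, Phf11d with Phf11a to Phf11c, Ifi27l2a with Ifi27l2b) are uncertain to the extent that reads were split between copies. Of the other overlaps, the longest for their gene were with Gm11626 on the opposite strand of Ifi35 (16.8% of its exonic length), Gm45338 in Rtp4 (13.9%) and Gm45193 in Herc6 (13.7%).

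The module was low in the double mutant and in WT, intermediate in p53 and high in E20. The summed level of the 38 members was 715 to 742 CPM in E20/p53 libraries 1 to 3 and 631 to 645 CPM in libraries 4 to 6. It was 2567 to 3246 CPM in E20 1 to 3, 6414 to 6844 CPM in E20 4 to 6, 1584 to 1781 CPM in p53 and 437 to 472 CPM in WT. No block overlapped another in this sum. Since these are bulk samples, fewer cells that express the genes and less RNA per cell cannot be told apart. E20 4 to 6 had the highest level for 37 of 38 members, each of its 3 libraries above all 15 others (10.2% of all genes tested had that pattern), and Ifi27 was the exception. For 26 of the 38 the libraries followed the order E20 4 to 6, E20 1 to 3, p53 and then both E20/p53 blocks with no overlap, a pattern of 1.18% of the genes tested. The E20 blocks were themselves apart: the median member was 2.52 times as high in E20 4 to 6 as in E20 1 to 3, against 0.984 over all genes tested. The E20/p53 blocks had no common direction, with 18 of 38 members higher in libraries 1 to 3 than in 4 to 6 (48.7% of genes tested). Single members still differed between these blocks, from 0.194 times in Lgals3bp to 7.64 times in Mx1, which was at most 0.987 CPM there.

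**Figure D1:**
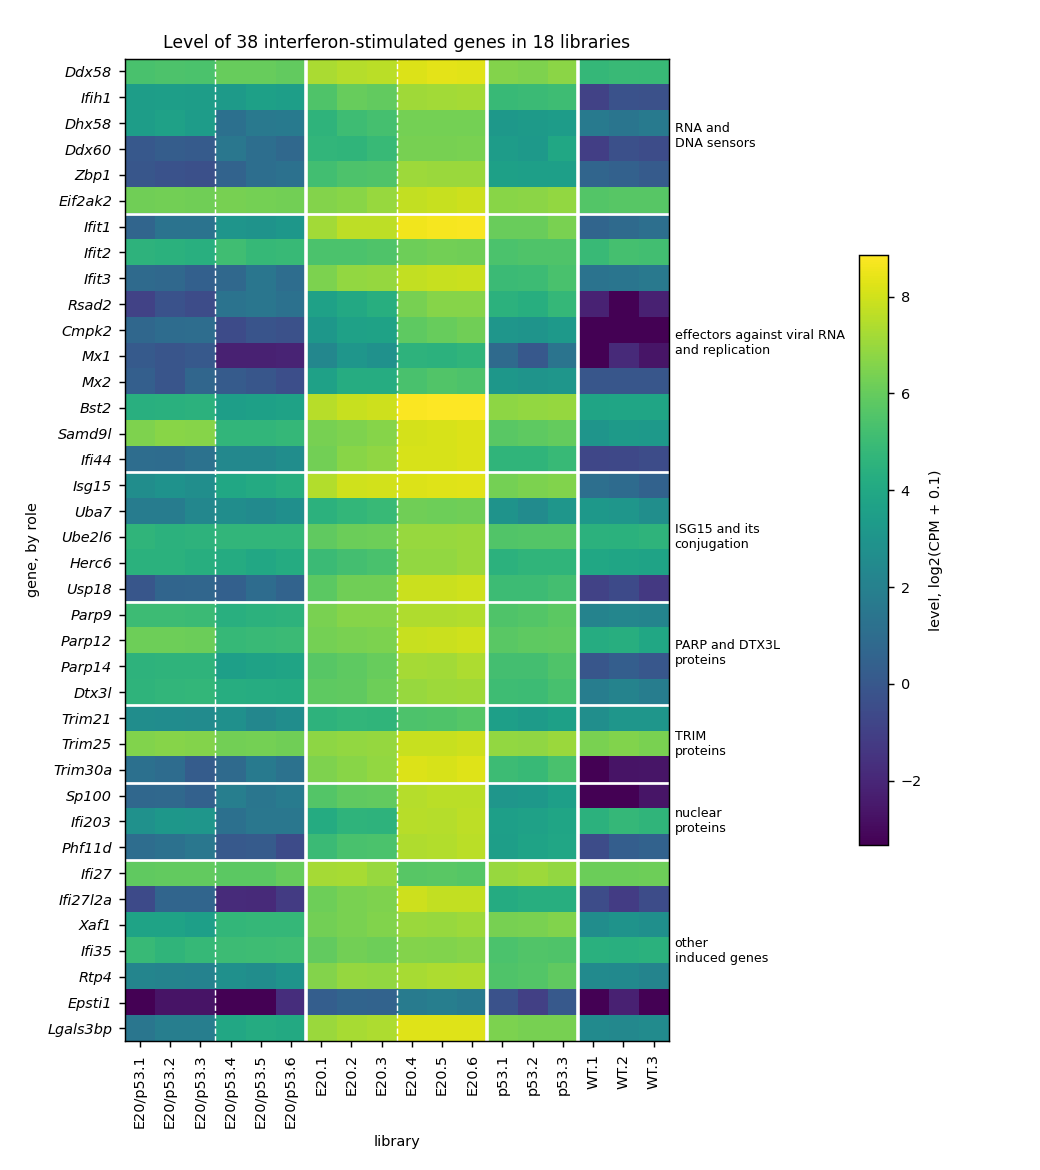
Level of each of the 38 members (rows, grouped by role) in each of the 18 libraries (columns), as the colour scale states. The 3 libraries E20 4 to 6 carry the highest level for all members but Ifi27, and the E20/p53 and WT libraries carry low levels for most.

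By their labels, E20/p53 and E20 differ in the p53 allele and in the naming of K14-Cre. In E20/p53 37 of the 38 members were lower and none was higher (19.6% of all 15235 genes tested were lower and 23.0% higher, by limma at an adjusted p under 0.05). The median log2 difference was -4.05 over the members and 0.05 over all genes tested. 36 of the 37 were also more than 2-fold lower (8.32% of the genes tested), and for 36 members every E20/p53 library was below every E20 library (11.2% of the genes tested). Ifi27l2a, an interferon-induced mitochondrial protein, had the largest fall (log2 -7.92), followed by Usp18, Trim30a, Ifit3 and Ifit1 at -6.50, -6.45, -6.43 and -6.04. The smallest that passed was that of Trim25 (-0.94). The counts were 36 to 37 lower with either block of either group left out, and the median was -3.94 for E20/p53 4 to 6 alone. With each block averaged to 1 value, limma called 0 members and 0 of all genes, while 33 members and 973 of the 15235 genes had an unadjusted p under 0.05.

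By their labels, E20/p53 and p53 differ in the PIK3CA allele and in the naming of K14-Cre. 28 members were lower and none higher (12.9% of all genes tested were lower and 12.9% higher), with a median log2 difference of -2.03 against 0.02 over all genes. In 33 members every E20/p53 library was below every p53 library (16.6% of genes tested). The 10 that did not pass were Dhx58, Eif2ak2, Mx1, Samd9l, Uba7, Herc6, Parp12, Dtx3l, Trim25 and Ifi203. E20 against p53 sets the single mutants side by side. There 29 members were higher and none lower (14.5% of all genes higher, 16.4% lower), with a median of 1.53 against -0.01 over all genes, and in 31 every E20 library was above every p53 library (21.7% of genes tested). The 9 that did not pass were Eif2ak2, Ifit2, Rsad2, Cmpk2, Samd9l, Trim25, Ifi27, Xaf1 and Lgals3bp. The last count depended on the block: 36 members rose without E20 1 to 3 and 23 without E20 4 to 6. With 1 value per block, limma called none of the members in either comparison, and 17 and 9 members had an unadjusted p under 0.05, beside 422 and 629 of all genes. The 3 tongue comparisons share libraries, so their counts are not independent of each other. The sum of 8 skeletal muscle markers was 4.89 to 5.32 CPM in E20/p53 1 to 3 and 659 to 707 CPM in E20/p53 4 to 6. It was 667 to 747 CPM in E20 and 2076 to 2226 CPM in p53. Most of the E20 sum came from Des (533 to 662 CPM) and Chrna1 (44.2 to 154 CPM). Every other muscle marker listed was at most 5.54 CPM in E20 and at least 35.48 CPM in p53. The part of the muscle markers in the comparisons with p53 was not tested.

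**Figure D2:**
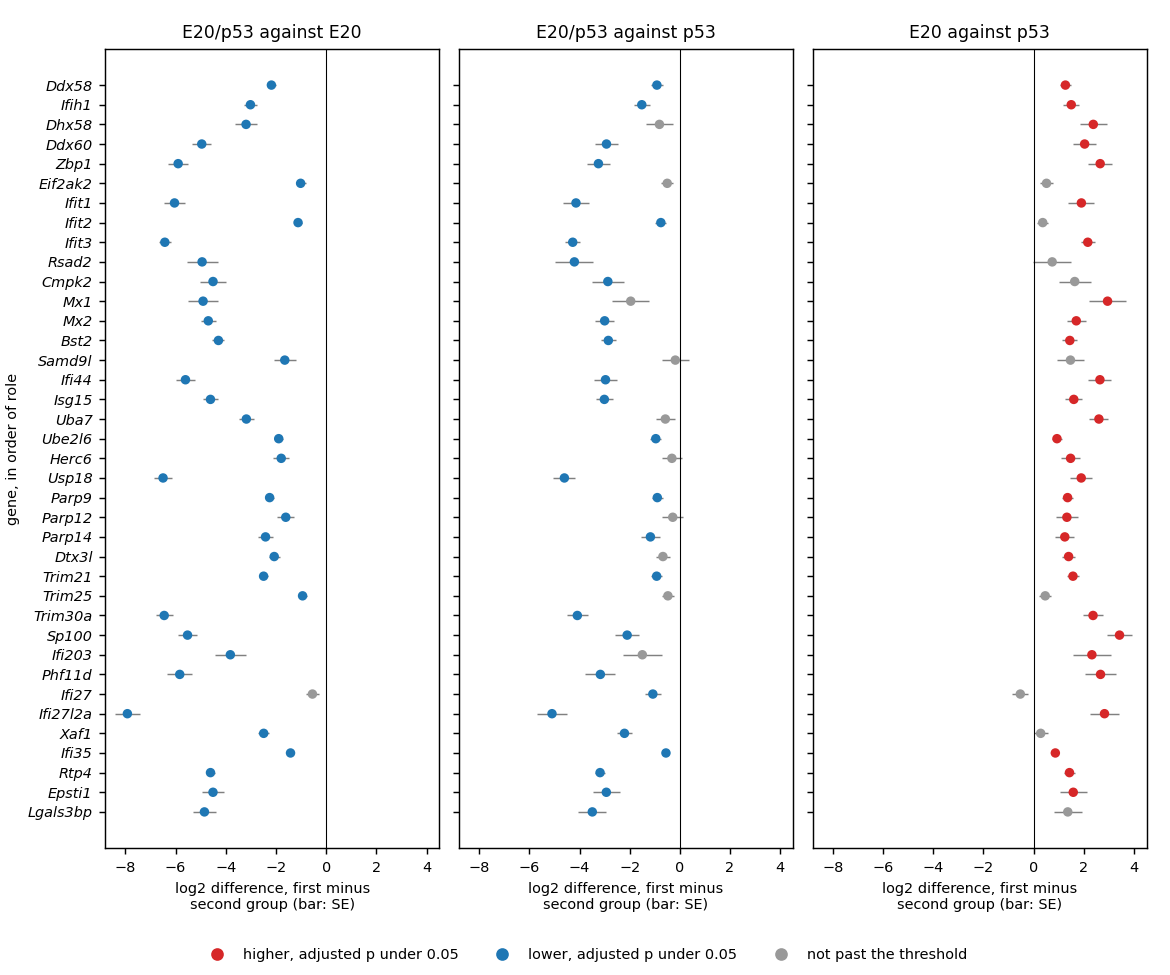
Log2 difference of each member (points, with the standard error as bars) in the 3 comparisons of tongue groups, first group minus second, genes grouped by role. Values below 0 are lower in the first group: all 38 points lie below 0 in E20/p53 against E20, and all but Ifi27 lie above 0 in E20 against p53.

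Of the 6 sensors of viral nucleic acid, all fell in E20/p53 against E20, 4 fell against p53 and 5 rose in E20 against p53. Levels below are the lowest, median and highest library of a group, which for p53 and WT is every library. Ddx58 (ENSMUSG00000040296, chr4:40203773-40239828, minus strand) encodes RIG-I, which detects viral RNA with a free triphosphate end, and had 41.3, 52.7 and 65.6 CPM in E20/p53, 158, 246 and 324 CPM in E20, 91.8, 97.0 and 107 CPM in p53 and 27.1, 29.2 and 30.4 CPM in WT. The 3 tongue groups did not overlap, with E20 highest and the double mutant lowest. Ddx58 fell by 2.18 on the log2 scale in E20/p53 against E20 (SE 0.19, adjusted p = 1.73e-07) and fell by 0.92 against p53 (SE 0.23, adjusted p = 0.00802). Ddx58 rose by 1.26 in E20 against p53 (SE 0.23, adjusted p = 0.000533). Without E20/p53 1 to 3 the difference from p53 was -0.62 and did not pass. Ifih1 (ENSMUSG00000026896, chr2:62595798-62646255, minus strand) encodes MDA5, a sensor of long double-stranded RNA. It had 9.89, 11.1 and 11.99 CPM in E20/p53, 45.5, 101 and 148 CPM in E20, 29.9, 31.5 and 34.0 CPM in p53 and 0.435, 0.722 and 0.747 CPM in WT, so the double mutant was the lowest tongue group and WT was near 0. Ifih1 fell by 3.02 on the log2 scale in E20/p53 against E20 (SE 0.26, adjusted p = 2.22e-07) and fell by 1.52 against p53 (SE 0.32, adjusted p = 0.00274). Ifih1 rose by 1.497 in E20 against p53 (SE 0.32, adjusted p = 0.00214). Eif2ak2 (ENSMUSG00000024079, chr17:78852564-78882573, minus strand) encodes PKR, which halts translation when it binds double-stranded RNA. It had 73.6, 76.2 and 83.1 CPM in E20/p53, 97.3, 169 and 239.8 CPM in E20, 102, 108 and 119 CPM in p53 and 48.0, 52.3 and 52.4 CPM in WT. Its E20 range contained all p53 libraries, since E20 1 to 3 lay near p53. Eif2ak2 fell by 1.02 on the log2 scale in E20/p53 against E20 (SE 0.20, adjusted p = 0.000628), and the difference of -0.50 from p53 did not pass (SE 0.24, adjusted p = 0.132). Eif2ak2 differed by 0.51 between E20 and p53 (SE 0.24, adjusted p = 0.1197), which did not pass. That last difference was -0.01 without E20 4 to 6, and it passed at 0.65 or 0.63 without E20 replicate 1 or 2. Dhx58, Ddx60 and Zbp1, which encode the regulatory sensor LGP2, a RIG-I cofactor and a sensor of Z-form nucleic acid, fell by 3.19, 4.96 and 5.90 in E20/p53 against E20.

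The 10 effectors that act on viral RNA and replication all fell in E20/p53 against E20, 8 fell against p53 and 6 rose in E20 against p53. Bst2 (ENSMUSG00000046718, chr8:71534255-71537456, minus strand) encodes tetherin, which holds budding virions at the cell surface, and had 11.4, 16.6 and 22.6 CPM in E20/p53, 188, 344 and 464 CPM in E20, 111, 117 and 120.4 CPM in p53 and 13.9, 14.01 and 14.3 CPM in WT. The double mutant spanned WT and lay below both single mutants. Bst2 fell by 4.29 on the log2 scale in E20/p53 against E20 (SE 0.24, adjusted p = 1.40e-09) and fell by 2.85 against p53 (SE 0.29, adjusted p = 4.46e-06). Bst2 rose by 1.44 in E20 against p53 (SE 0.29, adjusted p = 0.00143). Samd9l (ENSMUSG00000047735, chr6:3372257-3399572, minus strand), an antiviral factor that restricts translation, had 92.0, 98.7 and 103 CPM in double-mutant libraries 1 to 3 and 25.8, 26.1 and 27.3 CPM in double-mutant libraries 4 to 6. In E20 it had 80.9, 89.98 and 102 CPM in libraries 1 to 3 and 266, 282 and 296 CPM in 4 to 6, with 53.57, 57.0 and 62.9 CPM in p53 and 7.95, 9.26 and 10.004 CPM in WT. E20/p53 1 to 3 therefore lay within or above E20 1 to 3, and Samd9l was the 1 member called lower whose groups overlapped. Samd9l fell by 1.65 on the log2 scale in E20/p53 against E20 (SE 0.44, adjusted p = 0.00710), and the difference of -0.18 from p53 did not pass (SE 0.54, adjusted p = 0.830). Samd9l differed by 1.47 between E20 and p53 (SE 0.54, adjusted p = 0.0506), which did not pass. The fall against E20 no longer passed without E20/p53 4 to 6 (-0.71) or without E20 4 to 6 (-0.83), and the difference between E20 and p53 passed at 1.66, 1.63 and 1.60 without E20 replicate 1, 2 or 3. Ifit2 (ENSMUSG00000045932, chr19:34550694-34576419, plus strand), which binds AU-rich viral RNA, had 20.396, 26.0 and 34.8 CPM in E20/p53, 42.1, 58.7 and 75.6 CPM in E20, 41.8, 44.6 and 46.0 CPM in p53 and 30.4, 36.3 and 38.1 CPM in WT, and its double-mutant libraries were the lowest of the tongue. Ifit2 fell by 1.12 on the log2 scale in E20/p53 against E20 (SE 0.18, adjusted p = 0.000102) and fell by 0.76 against p53 (SE 0.22, adjusted p = 0.0172). Ifit2 differed by 0.36 between E20 and p53 (SE 0.22, adjusted p = 0.226), which did not pass. Without p53 replicate 2 or 3 the difference of E20/p53 from p53 was -0.75 and -0.73 and did not pass, nor did it without E20/p53 1 to 3, at -0.50.

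Ifit1, which binds viral RNA lacking a methylated cap, had 1.48, 4.99 and 8.49 CPM in E20/p53, 143, 295 and 430.4 CPM in E20, 66.8, 67.4 and 84.8 CPM in p53 and 1.49, 1.72 and 2.10 CPM in WT. The double mutant overlapped WT. Ifit1 fell by 6.04 on the log2 scale in E20/p53 against E20 (SE 0.42, adjusted p = 1.72e-08) and fell by 4.14 against p53 (SE 0.52, adjusted p = 2.81e-05). Ifit1 rose by 1.90 in E20 against p53 (SE 0.52, adjusted p = 0.0104). The rise in E20 against p53 did not pass without E20 4 to 6. Ifit3, its binding partner, had 1.24, 1.68 and 2.67 CPM in E20/p53, 88.3, 168 and 233 CPM in E20, 31.9, 32.5 and 41.4 CPM in p53 and 2.42, 2.59 and 2.89 CPM in WT, and fell by 6.43 on the log2 scale in E20/p53 against E20 (SE 0.24, adjusted p = 8.48e-12). Its near copy Ifit3b averaged 1.11 and 1.12 CPM in the E20/p53 blocks, 65.2 and 133 CPM in E20 1 to 3 and 4 to 6, and 17.72 CPM in p53. Both copies thus had the same order of groups. Cmpk2 (ENSMUSG00000020638, chr12:26469204-26479837, plus strand) encodes a mitochondrial nucleotide kinase and had 0.596, 1.20 and 1.91 CPM in E20/p53, 8.73, 34.8 and 73.3 CPM in E20 and 7.88, 8.37 and 9.64 CPM in p53, with 0 reads in all 3 WT libraries. E20 1 to 3 overlapped p53. Cmpk2 fell by 4.51 on the log2 scale in E20/p53 against E20 (SE 0.52, adjusted p = 3.98e-06) and fell by 2.87 against p53 (SE 0.63, adjusted p = 0.00351). Cmpk2 differed by 1.64 between E20 and p53 (SE 0.63, adjusted p = 0.0595), which did not pass. That last difference passed at 1.96, 1.86 and 1.85 without E20 replicate 1, 2 or 3. Its neighbour Rsad2, which encodes viperin and makes a chain-terminating nucleotide, fell by 4.94 against E20 and by 4.21 against p53, and the value of 0.74 for E20 against p53 did not pass. Mx1, Mx2 and Ifi44 fell by 4.90, 4.70 and 5.61 in E20/p53 against E20. Mx1 encodes a dynamin-like protein that traps viral components, and GENCODE M21 annotates Mx2 as a polymorphic pseudogene.

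ISG15 is a ubiquitin-like protein that UBA7, UBE2L6 and, in the mouse, HERC6 attach to other proteins as activating enzyme, conjugating enzyme and ligase, and USP18 removes it. All 5 genes fell in E20/p53 against E20 and rose in E20 against p53, and Isg15, Ube2l6 and Usp18 fell in E20/p53 against p53. Isg15 (ENSMUSG00000035692, chr4:156199424-156200818, minus strand) had 6.11, 11.2 and 19.7 CPM in E20/p53, 174, 277 and 319.7 CPM in E20, 78.9, 87.6 and 93.0 CPM in p53 and 1.32, 1.84 and 2.05 CPM in WT. No group overlapped another. Isg15 fell by 4.61 on the log2 scale in E20/p53 against E20 (SE 0.28, adjusted p = 3.63e-09) and fell by 3.01 against p53 (SE 0.34, adjusted p = 1.19e-05). Isg15 rose by 1.60 in E20 against p53 (SE 0.34, adjusted p = 0.00210). Ube2l6 (ENSMUSG00000027078, chr2:84798828-84810335, plus strand) had 22.4, 25.2 and 26.2 CPM in E20/p53, 58.9, 98.3 and 129.6 CPM in E20, 47.3, 48.7 and 48.7 CPM in p53 and 21.8, 22.7 and 23.8 CPM in WT, which put the double mutant at or just above WT. Ube2l6 fell by 1.89 on the log2 scale in E20/p53 against E20 (SE 0.18, adjusted p = 4.38e-07) and fell by 0.96 against p53 (SE 0.22, adjusted p = 0.00399). Ube2l6 rose by 0.93 in E20 against p53 (SE 0.22, adjusted p = 0.00365). Herc6 (ENSMUSG00000029798, chr6:57581000-57664632, plus strand) had 15.9, 19.0 and 22.2 CPM in E20/p53, 31.0, 79.6 and 132 CPM in E20, 22.3, 24.6 and 25.0 CPM in p53 and 13.4, 14.3 and 14.96 CPM in WT. All E20 libraries were above all p53 libraries, and E20/p53 lay close under p53. Herc6 fell by 1.79 on the log2 scale in E20/p53 against E20 (SE 0.32, adjusted p = 0.000338), and the difference of -0.32 from p53 did not pass (SE 0.39, adjusted p = 0.574). Herc6 rose by 1.47 in E20 against p53 (SE 0.39, adjusted p = 0.00935). Usp18, which also blocks the type I interferon receptor, had 0.864, 1.42 and 1.88 CPM in E20/p53, 55.7, 155 and 256 CPM in E20, 32.9, 33.0 and 37.3 CPM in p53 and 0.301, 0.435 and 0.575 CPM in WT, so that it was near 1 CPM in the double mutant. Usp18 fell by 6.50 on the log2 scale in E20/p53 against E20 (SE 0.36, adjusted p = 1.34e-09) and fell by 4.60 against p53 (SE 0.44, adjusted p = 1.99e-06). Usp18 rose by 1.89 in E20 against p53 (SE 0.44, adjusted p = 0.00385). In E20/p53 against E20 the fitted fall of Uba7 was 3.18, beside 4.61 for Isg15 and 6.50 for Usp18.

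PARP9, PARP12 and PARP14 are ADP-ribosyltransferases or bind ADP-ribose, and DTX3L is a ubiquitin ligase that pairs with PARP9. All 4 genes fell in E20/p53 against E20 and rose in E20 against p53, and Parp9 and Parp14 fell in E20/p53 against p53. Parp12 (ENSMUSG00000038507, chr6:39086410-39118349, minus strand) had 68.4, 70.8 and 72.9 CPM in the first E20/p53 block, 28.8, 30.8 and 31.0 CPM in the second, 79.4, 157 and 249 CPM in E20, 53.03, 56.6 and 59.4 CPM in p53 and 15.1, 18.3 and 19.5 CPM in WT. The E20/p53 blocks lay on either side of p53. Parp12 fell by 1.61 on the log2 scale in E20/p53 against E20 (SE 0.35, adjusted p = 0.00149), and the difference of -0.29 from p53 did not pass (SE 0.42, adjusted p = 0.645). Parp12 rose by 1.32 in E20 against p53 (SE 0.42, adjusted p = 0.0255). The value for E20/p53 against p53 was 0.33 without E20/p53 4 to 6. The rise in E20 against p53 did not pass when any 1 of the p53 libraries or of E20 4, 5 and 6 was left out, at 1.16 to 1.36. Parp9 (ENSMUSG00000022906, chr16:35938470-35972605, plus strand) had 20.25, 27.4 and 32.6 CPM in E20/p53, 83.7, 135 and 175 CPM in E20, 45.9, 47.9 and 55.9 CPM in p53 and 4.28, 4.39 and 4.71 CPM in WT, with no overlap between groups. Parp9 fell by 2.25 on the log2 scale in E20/p53 against E20 (SE 0.19, adjusted p = 1.34e-07) and fell by 0.90 against p53 (SE 0.23, adjusted p = 0.00953). Parp9 rose by 1.35 in E20 against p53 (SE 0.23, adjusted p = 0.000331). Without p53 replicate 3 the difference of E20/p53 from p53 was -0.82 and did not pass. Dtx3l (ENSMUSG00000049502, chr16:35926511-35939151, minus strand) had 18.2, 21.7 and 26.7 CPM in E20/p53, 57.5, 99.6 and 138 CPM in E20, 32.1, 33.3 and 39.3 CPM in p53 and 3.43, 3.54 and 4.20 CPM in WT, the same order as its overlapping neighbour Parp9. Dtx3l fell by 2.07 on the log2 scale in E20/p53 against E20 (SE 0.22, adjusted p = 2.04e-06), and the difference of -0.68 from p53 did not pass (SE 0.27, adjusted p = 0.0775). Dtx3l rose by 1.39 in E20 against p53 (SE 0.27, adjusted p = 0.00103). Parp14 fell by 2.42 against E20 and by 1.18 against p53, and the second value did not pass when p53 replicate 1, 2 or 3 was left out.

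TRIM proteins are ubiquitin ligases. TRIM25 activates RIG-I, TRIM21 binds antibody-coated virus inside cells, and Trim30a is a mouse gene whose product restrains signalling from Toll-like receptors. All 3 genes fell in E20/p53 against E20. Trim25 (ENSMUSG00000000275, chr11:88999376-89020293, plus strand) had 73.8, 86.5 and 99.7 CPM in E20/p53, 109, 175 and 242 CPM in E20, 112, 117 and 129 CPM in p53 and 83.6, 85.2 and 93.4 CPM in WT. E20 1 to 3 overlapped p53, and the double mutant was lower than both but spanned WT. Trim25 fell by 0.94 on the log2 scale in E20/p53 against E20 (SE 0.19, adjusted p = 0.00101), and the difference of -0.48 from p53 did not pass (SE 0.24, adjusted p = 0.143). Trim25 differed by 0.46 between E20 and p53 (SE 0.24, adjusted p = 0.152), which did not pass. That last value was -0.04 without E20 4 to 6. Trim21 (ENSMUSG00000030966, chr7:102557921-102565486, minus strand) had 4.94, 6.04 and 6.73 CPM in E20/p53, 23.2, 34.9 and 49.9 CPM in E20, 10.3, 11.7 and 12.1 CPM in p53 and 6.46, 8.28 and 8.36 CPM in WT, with the double mutant overlapping WT or below it. Trim21 fell by 2.49 on the log2 scale in E20/p53 against E20 (SE 0.19, adjusted p = 3.44e-08) and fell by 0.93 against p53 (SE 0.23, adjusted p = 0.00725). Trim21 rose by 1.57 in E20 against p53 (SE 0.23, adjusted p = 7.47e-05). Trim30a (ENSMUSG00000030921, chr7:104409025-104465193, minus strand) had 1.07, 2.00 and 3.01 CPM in E20/p53, 89.4, 199.9 and 304 CPM in E20, 29.3, 32.5 and 40.3 CPM in p53 and 0, 0.0575 and 0.0601 CPM in WT. It was near absent in WT, low in the double mutant and high in each E20 library. Trim30a fell by 6.45 on the log2 scale in E20/p53 against E20 (SE 0.34, adjusted p = 6.47e-10) and fell by 4.09 against p53 (SE 0.41, adjusted p = 3.49e-06). Trim30a rose by 2.37 in E20 against p53 (SE 0.41, adjusted p = 0.000401). Its near copy Trim30d averaged 0.305 and 0.104 CPM in the E20/p53 blocks, 4.499 and 46.9 CPM in E20 1 to 3 and 4 to 6, and 8.54 CPM in p53, so unlike Trim30a it was lower in E20 1 to 3 than in p53.

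Of the nuclear proteins, SP100 is a component of nuclear bodies that silence viral genomes, IFI203 is a mouse member of the DNA-binding PYHIN family, and PHF11D is a PHD finger protein. All 3 genes fell in E20/p53 against E20 and rose in E20 against p53. Sp100 (ENSMUSG00000026222, chr1:85649988-85709998, plus strand) had 1.29, 2.15 and 3.63 CPM in E20/p53, 48.3, 122 and 194 CPM in E20, 8.44, 9.06 and 11.47 CPM in p53 and 0, 0 and 0.0601 CPM in WT, with no overlap between groups. Sp100 fell by 5.52 on the log2 scale in E20/p53 against E20 (SE 0.40, adjusted p = 2.33e-08) and fell by 2.10 against p53 (SE 0.49, adjusted p = 0.00496). Sp100 rose by 3.42 in E20 against p53 (SE 0.49, adjusted p = 6.07e-05). Phf11d (ENSMUSG00000068245, chr14:59347407-59365470, minus strand) had 0.592, 1.47 and 2.75 CPM in E20/p53, 31.6, 105 and 191 CPM in E20, 11.2, 13.1 and 14.7 CPM in p53 and 0.621, 1.15 and 1.32 CPM in WT, and the double mutant spanned WT. Phf11d fell by 5.83 on the log2 scale in E20/p53 against E20 (SE 0.49, adjusted p = 1.36e-07) and fell by 3.17 against p53 (SE 0.60, adjusted p = 0.00114). Phf11d rose by 2.66 in E20 against p53 (SE 0.60, adjusted p = 0.00291). Ifi203 (ENSMUSG00000039997, chr1:173920407-173942672, minus strand) had 7.16, 8.26 and 8.69 CPM in the first E20/p53 block, 2.14, 2.70 and 2.73 CPM in the second, 17.995, 23.0 and 24.1 CPM in E20 1 to 3 and 183, 186 and 203 CPM in E20 4 to 6, 11.52, 12.6 and 14.4 CPM in p53 and 22.3, 25.3 and 27.7 CPM in WT. E20 1 to 3 was near WT, while E20 4 to 6 was far above all other libraries, the widest ratio between the E20 blocks of any member (8.78). Ifi203 fell by 3.82 on the log2 scale in E20/p53 against E20 (SE 0.63, adjusted p = 0.000158), and the difference of -1.50 from p53 did not pass (SE 0.77, adjusted p = 0.162). Ifi203 rose by 2.32 in E20 against p53 (SE 0.77, adjusted p = 0.0310). The rise in E20 against p53 did not pass when any 1 of the p53 libraries or of E20 4, 5 and 6 was left out, at 1.99 to 2.41.

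Of the 7 other induced genes, Ifi27 did not pass in E20/p53 against E20 and the other 6 fell. Ifi27 (ENSMUSG00000064215, chr12:103434211-103440239, plus strand) encodes a small membrane protein of mitochondria and the nuclear envelope. It had 54.8, 59.5 and 64.7 CPM in E20/p53, 128, 149 and 154 CPM in E20 1 to 3, 50.2, 51.6 and 54.2 CPM in E20 4 to 6, 116, 126 and 133 CPM in p53 and 69.0, 69.1 and 71.4 CPM in WT. E20 4 to 6 was its lowest block, below all WT libraries, whereas it was the highest block for the other 37 members. Ifi27 differed by -0.55 on the log2 scale in E20/p53 against E20 (SE 0.26, adjusted p = 0.106), which did not pass, and it fell by 1.08 against p53 (SE 0.32, adjusted p = 0.0221). Ifi27 differed by -0.53 between E20 and p53 (SE 0.32, adjusted p = 0.229), which did not pass. The difference between E20/p53 and E20 was 0.19 without E20 1 to 3 and -1.28 without E20 4 to 6, each of which passed, in opposite directions. It also passed at -0.69 and -0.70 without E20 replicate 4 or 6. The fall against p53 did not pass when any 1 of the p53 libraries was left out, at -1.03 to -1.13, nor without E20/p53 1 to 3, at -1.10. Its neighbour Ifi27l2a had 0.170, 0.442 and 1.46 CPM in E20/p53, 71.6, 151 and 246 CPM in E20, 17.9, 19.5 and 19.9 CPM in p53 and 0.345, 0.601 and 0.621 CPM in WT, and fell by 7.92 in E20/p53 against E20 (SE 0.49, adjusted p = 4.02e-09). The neighbours thus had opposite orders of the E20 blocks. Ifi35 (ENSMUSG00000010358, chr11:101448407-101458698, plus strand), a partner of the interferon-induced protein NMI, had 25.3, 31.1 and 35.3 CPM in E20/p53, 61.8, 85.1 and 98.5 CPM in E20, 42.5, 44.9 and 47.4 CPM in p53 and 20.58, 21.4 and 21.8 CPM in WT, with no overlap between groups. Ifi35 fell by 1.42 on the log2 scale in E20/p53 against E20 (SE 0.11, adjusted p = 6.78e-08) and fell by 0.56 against p53 (SE 0.14, adjusted p = 0.00764). Ifi35 rose by 0.86 in E20 against p53 (SE 0.14, adjusted p = 0.000174). Xaf1 (ENSMUSG00000040483, chr11:72301629-72313733, plus strand) is named for its binding of the apoptosis inhibitor XIAP and had 11.8, 19.9 and 27.8 CPM in E20/p53, 77.4, 109.9 and 135 CPM in E20, 81.8, 83.7 and 94.7 CPM in p53 and 6.27, 6.68 and 7.65 CPM in WT. Its p53 libraries lay within the E20 range, near E20 1 to 3. Xaf1 fell by 2.49 on the log2 scale in E20/p53 against E20 (SE 0.23, adjusted p = 4.26e-07) and fell by 2.21 against p53 (SE 0.28, adjusted p = 3.55e-05). Xaf1 differed by 0.28 between E20 and p53 (SE 0.28, adjusted p = 0.491), which did not pass. The last value was -0.02 without E20 4 to 6. Rtp4, Lgals3bp and Epsti1 fell by 4.61, 4.85 and 4.51 against E20. Epsti1 was at most 3.60 CPM in any library.

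**Figure D3:**
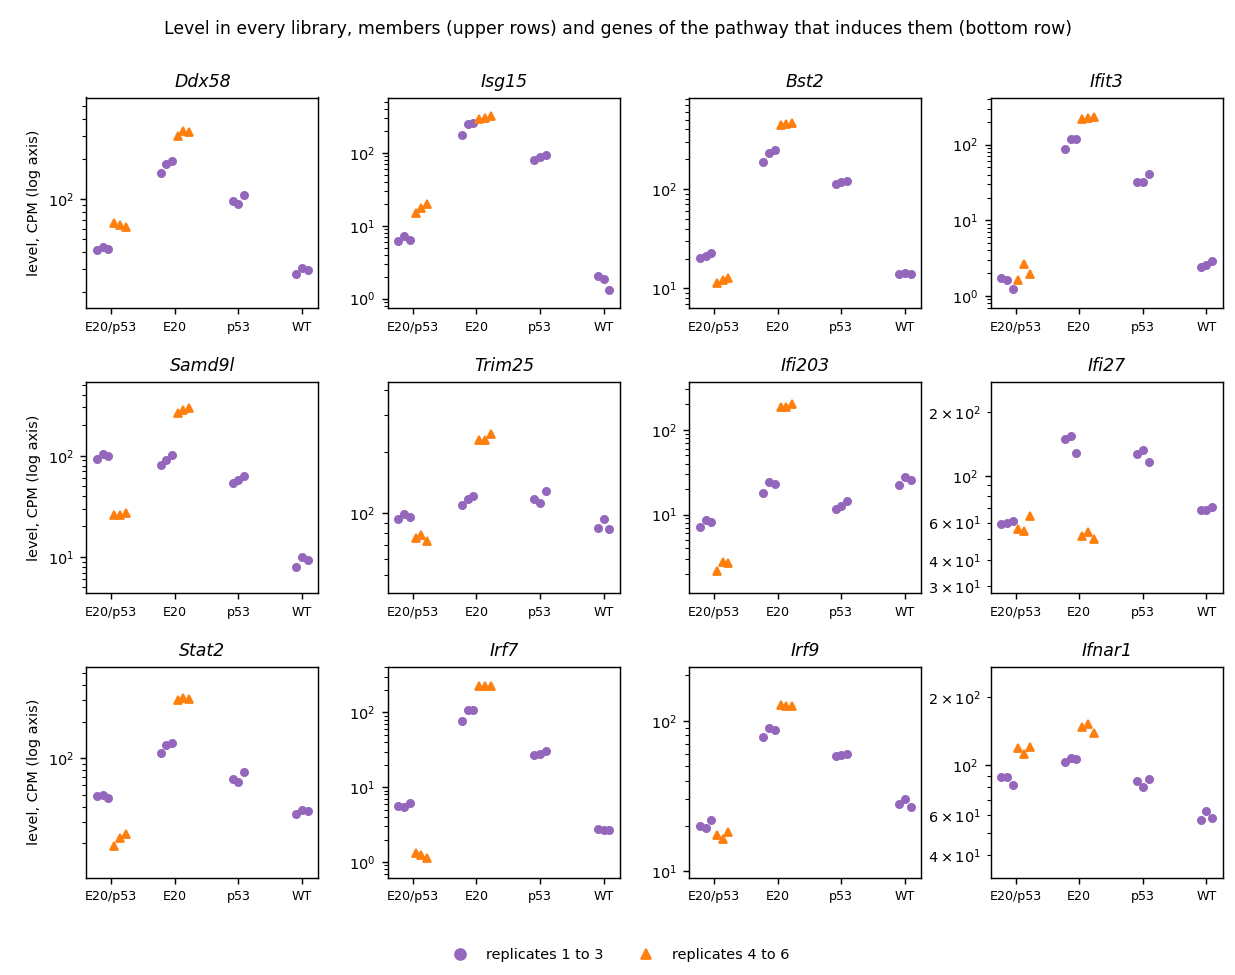
Level in every library (points, CPM on a log axis) for named members in the upper rows and for genes of the pathway that induces them in the bottom row, with groups ordered E20/p53, E20, p53 and WT. The blocks of libraries in E20/p53 and in E20 are marked apart, and in E20 libraries 4 to 6 lie above 1 to 3 for each member drawn but Ifi27.

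The genes that induce the module were set beside it. Stat2, a subunit of ISGF3, had 18.9, 35.7 and 49.8 CPM in E20/p53, 111, 217 and 313 CPM in E20, 64.1, 67.5 and 76.6 CPM in p53 and 34.6, 37.2 and 37.7 CPM in WT, and the double mutant's blocks lay on either side of WT, with 47.6, 48.9 and 49.8 CPM in E20/p53 1 to 3 and 18.9, 22.4 and 23.7 CPM in 4 to 6. The log2 differences of Stat2 were -2.59 in E20/p53 against E20 (SE 0.32, adjusted p = 7.80e-06), -1.09 when E20/p53 was set against p53 (SE 0.39, adjusted p = 0.0478) and 1.495 in E20 against p53 (SE 0.39, adjusted p = 0.00743). Irf9, the DNA-binding subunit of the same complex, had 16.4, 18.8 and 21.8 CPM in E20/p53, 78.1, 107 and 127 CPM in E20, 58.7, 59.4 and 60.2 CPM in p53 and 26.9, 28.0 and 30.2 CPM in WT. It was lowest in the double mutant, below WT, with differences of -2.45 in E20/p53 against E20 (SE 0.12, adjusted p = 2.76e-10), -1.66 when E20/p53 was set against p53 (SE 0.15, adjusted p = 7.76e-07) and 0.79 in E20 against p53 (SE 0.15, adjusted p = 0.000627). Irf7, which amplifies interferon production and is itself induced by interferon, had 1.12, 3.40 and 6.24 CPM in E20/p53, 77.5, 165 and 227 CPM in E20, 27.3, 27.6 and 30.4 CPM in p53 and 2.64, 2.65 and 2.79 CPM in WT. Irf7 had log2 differences of -5.74 in E20/p53 against E20 (SE 0.45, adjusted p = 5.84e-08), -3.38 when E20/p53 was set against p53 (SE 0.55, adjusted p = 0.000319) and 2.37 in E20 against p53 (SE 0.55, adjusted p = 0.00361). Over Stat2 and 7 IRF genes, 4 fell and 1 rose in E20/p53 against E20, 3 fell and 1 rose against p53, and 4 rose and none fell in E20 against p53. The 1 that rose against E20 was Irf5 (log2 1.31, adjusted p = 0.00283).

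The chains of the type I interferon receptor differed less. Ifnar1, 1 chain of the type I interferon receptor, averaged 102 ± 17.4 CPM in E20/p53 and 126 ± 22.5 CPM in E20 (SD, n = 6 each), with 84.1 ± 3.61 CPM in p53 (SD, n = 3). The difference of -0.31 from E20 did not pass (SE 0.12, adjusted p = 0.0509), nor did that of 0.26 from p53, and in E20 against p53 Ifnar1 rose by 0.56 (SE 0.15, adjusted p = 0.00829). Ifnar2, the other chain, fell by 0.57 in E20/p53 against E20 (SE 0.18, adjusted p = 0.0171) with overlapping libraries, and its differences of -0.13 and 0.44 in the other tongue comparisons did not pass. Of the 9 receptor and kinase genes, 1 rose and 5 fell in E20/p53 against E20, 2 rose and none fell against p53, and 4 rose and none fell in E20 against p53. Ifnlr1, a chain of the type III receptor, had the largest fitted value of that list in each (1.57, 2.63 and 1.06), and none passed. It had 3.26 to 4.48 CPM in E20/p53 1 to 3 and at most 1.16 CPM in any other library. The counts of rises and falls over 9 sensing and adaptor genes were 2 and 5, 1 and 2, and 4 and 3 in the same order of comparisons. Tmem173, which encodes STING, had 3.02, 12.6 and 22.8 CPM in E20/p53, 47.3, 53.9 and 60.8 CPM in E20, 35.5, 35.6 and 38.2 CPM in p53 and 11.1, 13.0 and 13.8 CPM in WT. Its E20/p53 blocks were apart, with 3.02, 3.03 and 3.03 CPM in libraries 1 to 3 and 22.2, 22.4 and 22.8 CPM in 4 to 6. It fell by 2.69 against E20 (SE 0.51, adjusted p = 0.000540) and by 2.13 against p53 (SE 0.62, adjusted p = 0.0199). Tlr7, an endosomal RNA receptor, was detected mainly in p53, where it had 2.75, 3.45 and 4.66 CPM, against at most 0.448 CPM in any other library. Of 7 negative regulators 1 rose and 3 fell in E20/p53 against E20, 3 fell against p53 and 2 rose in E20 against p53. Trex1, which degrades cytosolic DNA, fell by 1.77 against E20, and Socs1 had the largest value against p53 (-1.01), which did not pass.

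Interferon mRNA itself was near the limit of counting. Of the 21 interferon genes listed, 9 had no read in any library, and Ifnz alone passed the filter. Ifnz had 27 reads in E20/p53, 42 in E20, 18 in p53 and 29 in WT, and did not pass in any comparison. Ifnb1, which encodes interferon beta, had 1 read in E20/p53, 19 in E20, 1 in p53 and 1 in WT, summed over the libraries of each group. In E20 15 of its reads were in libraries 4 to 6 and 4 in libraries 1 to 3. It was not tested. The sum of 12 leukocyte markers was 5.90 to 25.2 CPM in E20/p53, 4.19 to 22.6 CPM in E20, 6.16 to 6.995 CPM in p53 and 16.5 to 18.3 CPM in WT. Cd3e, Adgre1 and Ncr1 had no read in any library, and Ptprc, the pan-leukocyte CD45 gene, was at most 0.172 CPM. E20 4 to 6, where the module was highest, had the lowest leukocyte sum, at 4.19 to 5.75 CPM. Most of the higher sums came from Cd68, a macrophage lysosomal protein, and Lyz2, a myeloid lysozyme. In the double mutant Cd68 had 19.1, 21.1 and 22.5 CPM in libraries 1 to 3 and 2.83, 3.13 and 3.22 CPM in libraries 4 to 6, beside 15.4, 15.98 and 17.2 CPM in WT. Lyz2 had 13.3, 15.8 and 16.2 CPM in E20 1 to 3 and at most 2.34 CPM in any other library. Of the 4 leukocyte markers tested, Cd68 rose by 1.85 and Lyz2 fell by 3.71 in E20/p53 against E20, none passed against p53, and Lyz2 rose by 2.95 in E20 against p53. Their part in the members' differences was not tested. Summed endothelial markers were 1.69 to 5.80 CPM in the tongue libraries.

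The order of the libraries inside a block was also counted. In E20 1 to 3, replicate 1 was the lowest of the 3 for 36 of 38 members (39.5% of all genes tested had it lowest), and replicate 3 was the highest for 29 (29.4%). In p53 replicate 3 was the highest for 31 members (31.5% of genes tested), and in E20 4 to 6 replicate 6 was the highest for 28 (27.6%). Replicate 1 of p53 was the lowest for 23 members (33.9% of genes tested), replicate 4 of E20 for 22 (37.7%) and replicate 1 of WT for 22 (44.2%). In E20/p53, replicate 1 was the lowest of libraries 1 to 3 for 19 members (35.7%) and replicate 4 the lowest of 4 to 6 for 18 (34.6%), while replicate 2 was the highest for 16 (34.5%) and replicate 6 for 19 (35.7%). In WT replicate 2 was the highest for 17 (46.5%). The variance between the libraries of a block, divided by that of counting error, had a median of 14.3 over the members in E20 1 to 3, against 1.36 over all genes tested. It was 4.64 against 1.18 in E20 4 to 6 and 3.79 against 1.69 in p53. In the E20/p53 blocks it was 0.988 and 1.22 against 1.16 and 1.36, and in WT 0.851 against 1.20. This ratio can grow with a gene's level, and the values over all genes were not matched for level, so the blocks are not ranked by it. Among genes with at least 5 CPM in all 3 libraries, the highest library was a median of 1.10 and 1.12 times the lowest over 20 and 22 members in E20/p53 1 to 3 and 4 to 6, against 1.08 and 1.09 over all genes. It was 1.28 over 36 members in E20 1 to 3 and 1.08 over 37 in E20 4 to 6, against 1.09 and 1.08 over all genes. In p53 it was 1.18 over 36 members against 1.11, and in WT 1.12 over 16 against 1.09. This ratio can also depend on level, and the members counted differ between blocks, so the blocks are not ranked by it either. The members of a library share its preparation and depth, so these are descriptions of 18 libraries.

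**Figure D4:**
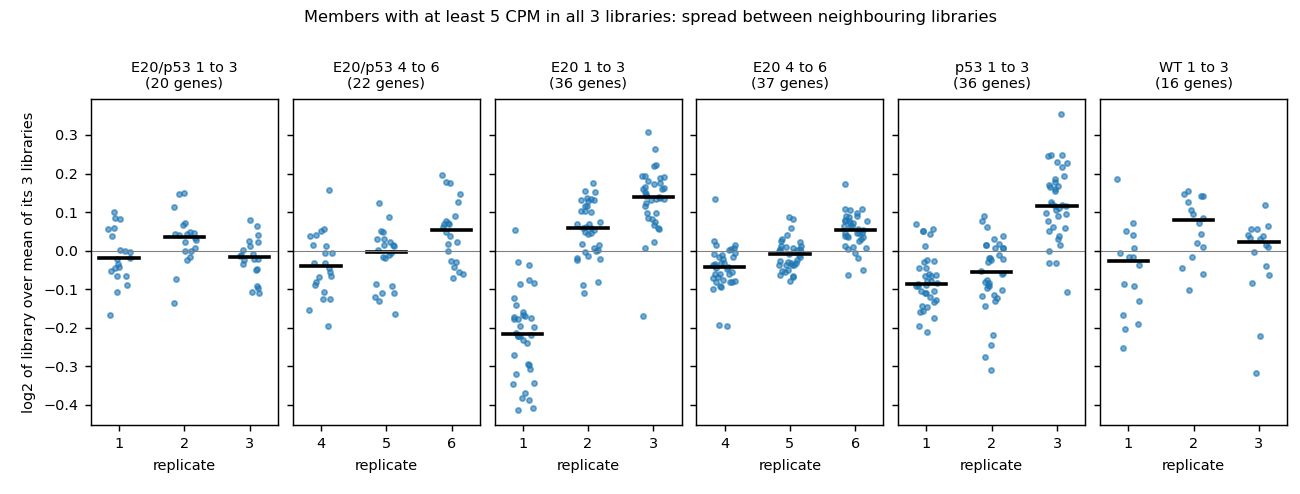
Log2 of each member's level in a library over its mean in the 3 libraries of the block, 1 panel per block. Each point is 1 member in 1 library, for members with at least 5 CPM in all 3, and black bars are medians. In E20 1 to 3 the points of replicate 1 lie mostly below 0. Counted over all 38 members, replicate 1 is lowest there for 36. The points stay close to 0 in E20 4 to 6.

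Against WT, which is labelled esophagus, 18 members were higher and 1 lower in E20/p53 (26.5% of all genes tested higher, 21.6% lower), with a median log2 difference of 0.73. The 1 that fell was Ifi203 (log2 -2.46, SE 0.77, adjusted p = 0.0150), and it did not pass without WT replicate 2. In E20 36 rose and none fell (29.0% of genes tested higher, 26.4% lower), with a median of 4.76, and Ifi203 and Ifi27 did not pass. In p53 31 rose and none fell (29.3% higher, 24.9% lower), with a median of 3.24. The 7 that did not pass were Ifit2, Uba7, Herc6, Trim21, Trim25, Ifi203 and Ifi27. With the 2 groups fitted alone all of these but Uba7 passed, Ifi203 as lower, and 80.7% of all genes tested passed there. In 36 members every p53 library was above every WT library, a pattern of 42.8% of the genes tested. The 4 PARP and DTX3L genes rose in all 3 comparisons with WT, which share the WT libraries: Parp14 by 4.09, 6.50 and 5.26 in E20/p53, E20 and p53. Isg15 rose by 2.60, 7.21 and 5.61 and Ifih1 by 4.03, 7.05 and 5.55 in that order of groups. Bst2 rose in E20 and p53 (4.48 and 3.04) and had a difference of 0.19 in E20/p53 that did not pass. Cmpk2, with no read in WT, was at least 6.94-fold higher in E20/p53, 212.5-fold in E20 and 48.0-fold in p53, taking 3 reads per WT library as the floor. Eif2ak2 in E20/p53 and Dhx58 in p53 no longer passed against WT when any 1 library of either group was left out. The medians were the same with Cmpk2 set at that bound. WT had the lowest mean of the 6 blocks for 22 members (25.9% of genes tested) and p53 for none.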

How the data were processed

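Per the submitters' processing notes, the tools were bcl2fastq 1.8.4, Trimmomatic and featureCounts, and the build was mm10. Libraries were made with a TruSeq Stranded mRNA LT kit, per the labels' protocols. The sources used here do not give the aligner, annotation, strand setting or scaling method. The authors deposited log2 values for 26143 genes in 18 columns. Each is a log2 ratio of the reads, with 1 added, to a scaled total of its library: 100% of values came back as whole reads to within 0.001. The scaled totals were 0.939 to 1.12 times the reads.

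CPM are the recovered reads scaled to a common total. The test was limma 3.58.1 in R 4.3.3 on these values, with a trend of variance on level, a mean per group, all 18 libraries in 1 fit (14 residual degrees of freedom), and 2-sided p-values adjusted by Benjamini-Hochberg over the 15235 genes with at least 0.635 CPM (10 reads at the median depth) in 3 libraries and 15 reads in all. Adjusted p under 0.05 passed. "Rose", "fell", "higher" and "lower" refer to the first group named. The procedure was tested on simulated data with independent libraries and no blocks, so that test does not cover calls that rest on the blocks. Depth of 14592044 to 18176060 reads limits genes near the floor of 3 reads. Such limits cover counting error only.

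Members, roles and lists were chosen with earlier results of these data known. Values are given in full for the 3 members of each of 7 roles with the highest mean level, for members called against the majority or without reads in a group, and for fixed pathway genes. Ifit1, Ifit3, Usp18 and Ifi27l2a were added for their large falls, after their values were seen. Alternatives were other scaling, log2 of CPM plus 1, weighted voom, other filters, fits of the compared groups alone, a replicate block, block means, and libraries or blocks left out. Promoters are from RefSeq (GRCm38.p6), positions from GENCODE M21 (mm10).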

Additional observations from a re-analysis of the deposited data

How the results depend on the processing

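With each block averaged to 1 value, limma called 0 members in every comparison, so the calls rest on treating the libraries inside a block as replicates. Of the single-gene values under an alternative, 1299 kept their direction and side of the threshold, 81 no longer passed, 36 newly passed and 14 changed sign. The cause was not tested for any of them beyond the samples or genes each setting leaves out. With 1 library left out at a time, the number of members lower in E20/p53 against E20 was 37 to 38 and against p53 24 to 29. Likewise 25 to 32 members were higher in E20 against p53, 35 to 36 in E20 against WT, 15 to 18 in E20/p53 against WT and 30 in p53 against WT, and 0 to 1 were lower in E20/p53 against WT.

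The median log2 difference of the members in E20/p53 against E20 was -3.09 on log2 of CPM plus 1, -3.60 without E20/p53 4 to 6, -4.82 without E20 1 to 3 and -2.88 without E20 4 to 6. In E20/p53 against p53 it was -1.37 on log2 of CPM plus 1. In E20 against p53 it was 2.10 under voom with sample quality weights, 2.20 without E20 1 to 3 and 0.92 without E20 4 to 6. In E20 against WT it was 4.34 on log2 of CPM plus 1, 5.37 under voom, 5.26 without E20 1 to 3 and 4.27 without E20 4 to 6. Counts against the main direction appeared as 1 member higher in E20/p53 against E20 without E20 1 to 3 and 1 in E20/p53 against p53 under voom. They also appeared as 1 lower in E20 against p53 and 1 in E20 against WT, each under voom and without E20 1 to 3, and as 1 in p53 against WT with the compared groups alone. In E20/p53 against WT 2 members were lower under upper quartile scaling, 3 under voom, 2 with the compared groups alone and 2 without E20/p53 4 to 6. Upper quartile scaling moved the median of all genes by -0.101 in E20 against WT, and by less in the other comparisons.

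Values that changed sign without E20 4 to 6 were those of E20 against p53 for Eif2ak2 (-0.0146), Ifit2 (-0.0321), Trim25 (-0.0400), Xaf1 (-0.0240) and Ifi27 (0.20). In E20/p53 against p53 Samd9l was at 0.72 under voom, 0.76 without E20/p53 4 to 6, and -0.386 to 0.0125 with 1 library left out, being above 0 (0.0125 and 0.00926) without E20/p53 replicate 4 and 5. Parp12 there was at 0.30 under voom and 0.33 without E20/p53 4 to 6. Ifi27 in E20/p53 against E20 was at 0.10 under voom and 0.19 without E20 1 to 3.

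Deviations from the group mean correlated at -0.0543 to 0.0744 between libraries with the same replicate number. In E20 and E20/p53 these deviations hold the difference between the blocks, so the values cannot decide whether the numbers pair libraries. For p53 against WT, where each group is 1 block, they were 0.0629, -0.0269 and 0.0171. With the replicate block 6 members were lower in E20/p53 against WT, 24 were higher in E20 against p53, and Xaf1 in E20 against p53 was at -0.15. The other counts under the block were within 1.5 times those without it.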

Other observations

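Per length of exon, the members with the highest level in E20 4 to 6 were Bst2 at 500.0 ± 13.4 CPM per kilobase, Ifi27l2a at 484 ± 40.9, Isg15 at 405 ± 16.2, Ifit1 at 154 ± 8.12, Ifit3 at 129.5 ± 4.80 and Lgals3bp at 108 ± 0.874 (SD, n = 3). In E20/p53 1 to 3 the order was another: Ifi27 was first at 40.9 ± 0.616 CPM per kilobase, then Bst2 at 23.7 ± 1.22, Samd9l at 18.03 ± 1.01, Parp12 at 17.69 ± 0.553, Trim25 at 16.8 ± 0.487 and Ifi35 at 16.1 ± 1.33 (SD, n = 3). Ifi27l2a, second per length in E20 4 to 6, was in place 17 of 38 there.

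In E20/p53 against E20 the median log2 difference was -4.45 for the 12 members with an ISRE core in the promoter window, -2.28 for the 16 whose window lacks it and -4.65 for the 10 with no window. In E20/p53 against p53 the medians were -2.89, -0.86 and -2.48 in the same order, and in E20 against p53 they were 1.58, 1.43 and 1.796. These are descriptions of small sets with no test.

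Among the near copies, Phf11b averaged 0.0561 and 0.310 CPM in E20/p53 1 to 3 and 4 to 6, against 8.61 and 15.04 CPM in E20 1 to 3 and 4 to 6. Phf11c averaged 2.76 and 2.28 CPM in the same E20/p53 blocks, against 4.66 and 10.9 CPM in the E20 blocks, a smaller difference than that of Phf11b. The DNA sensor Cgas averaged 14.1 and 19.2 CPM in the same E20/p53 blocks and 18.4 and 17.9 CPM in the E20 blocks. It averaged 22.9 CPM in p53 and 2.01 CPM in WT.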
